A study of Mus musculus with 17 samples.

Results

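Mouse embryonic stem cells of the E14 line that carry a slow-elongating RNA polymerase II on both alleles (RNAPII-mut, genotype slow/slow) were profiled by RNA-seq before and after their first day in 2i, the pair of kinase inhibitors that moves stem cells toward naive pluripotency. The comparison rests on 5 of the 17 libraries of the series: 3 from RNAPII-mut cells after 1 day of 2i (day 1) and 2 from RNAPII-mut cells without 2i (day 0), chosen by genotype and day in the labels. All cells of the series, the controls included, were kept without feeder cells on gelatine in medium with 10% fetal bovine serum and 1000 U per mL of leukaemia inhibitory factor (LIF). To this medium the day 1 cells received 1 µM of the MEK inhibitor PD0325901 and 3 µM of the GSK3 inhibitor CHIR99021, so serum and LIF stayed present throughout. WT cells of the same line at day 0 and day 1 (2 libraries each) and RNAPII-mut cells at day 2 and day 7 (2 libraries each) served for comparison. All 17 libraries, those of WT cells at day 2 and day 7 included, entered the fit from which the spread was estimated. The labels do not say whether the mutant is a single clone or whether replicates came from separate cultures, so p-values measure only the spread between these libraries, which may be technical.

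MEK activates the kinase ERK, which in serum carries the FGF signal that prepares stem cells to leave the naive state. ERK induces its own inhibitors (the Sprouty, Spred and Dusp families) and ETS transcription factors, so these genes serve as readouts of the pathway. GSK3 marks beta-catenin for destruction, and its inhibition releases TCF-bound Wnt target genes from repression. Naive cells express a circuit of transcription factors around Nanog, Esrrb, Klf4 and Tfcp2l1, whereas formative cells switch on Otx2, Pou3f1 and the de novo DNA methyltransferases.

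The libraries held 47350441 to 56138844 counts, and the 5 libraries compared here 47350441 to 53239889. Levels are given as CPM, counts scaled to library size with TMM factors. Libraries of one mutant group correlated across genes at r = 0.980 to 0.989, where genes are not independent replicates. The markers that define embryonic stem cells were abundant in all 5 libraries, with Pou5f1 at 1616 to 2430 CPM, Sox2 at 344 to 576 CPM and Dppa5a at 1855 to 3347 CPM. Among WT libraries, replicate 1 of day 0 and of day 1 differed from the rest: stromal and smooth muscle transcripts summed to 1221 and 1653 CPM there, against 159 and 256 CPM in the other replicates and 160 to 217 CPM in the 5 mutant libraries. The gene for the large subunit of RNA polymerase II, Polr2a, had 712 and 611 CPM at day 0 and 495, 456 and 656 CPM at day 1 in the mutant. Gene counts do not show the substitution it carries, so this level does not check the genotype label.

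One day of 2i changed the level of 216 of 15365 genes tested in the mutant, 106 upward and 110 downward (1.41% of all genes; edgeR quasi-likelihood test, Benjamini-Hochberg adjusted p under 0.05, termed called below). Among called genes of at least 5 CPM, the homeobox factor Cdx1 had the largest rise and the ERK feedback inhibitor Spry4 the largest fall. The median log2 fold change was 2.01 among the genes called higher and -1.68 among those called lower, against 0.01 over all genes tested. An unadjusted p under 0.05 was reached by 2030 genes (13.2%). Changes of at least 2-fold made up 196 of the 216 calls, and changes of at least 4-fold 93, of which 53 were rises. In all 216 the day 1 and day 0 libraries did not overlap, which held for 40.2% of all genes tested. Of the rises, 35 started under 1 CPM at day 0, and 6 of these had no count in either day 0 library. With these 6 set to their lower bound, against a floor of 3 counts over both day 0 libraries, the median of 2.01 and the 53 rises of at least 4-fold were the same.

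The number of calls depended on single libraries. Leaving out day 0 replicate 1 left 1 call, the transcription factor gene Myrf (adjusted p = 0.0194), and leaving out day 0 replicate 2 left 30. Without day 1 replicate 1, 2 or 3 the count was 61, 113 or 69. In each of these 5 fits all 216 genes had an unadjusted p under 0.05; their direction was fixed by their choice, since their groups do not overlap. With a single day 0 library left, its spread was taken from that of the remaining groups. A fit of the 9 mutant libraries alone, chosen after seeing the data, called 1192 genes (8.1% of those tested; 501 higher, 691 lower), including all 216. The fit without the 2 WT libraries that carry stromal transcripts called 509 (3.27%).

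**Figure D1:**
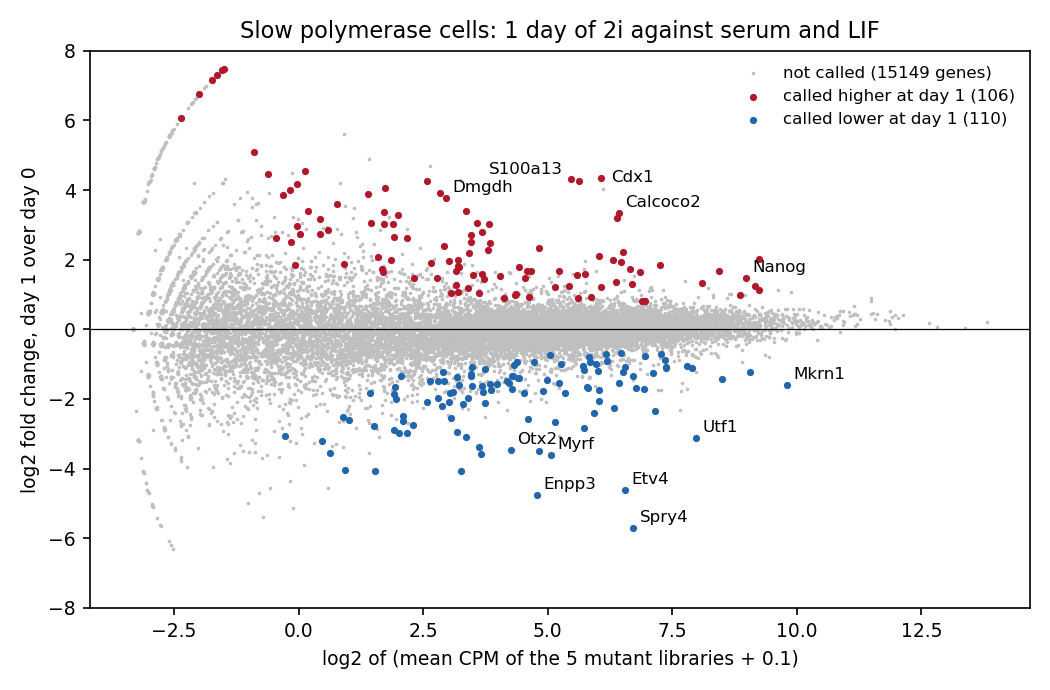
Log2 fold change of day 1 over day 0 in RNAPII-mut cells (vertical axis) against mean level in the 5 libraries (horizontal axis, log2 of CPM + 0.1), 1 point per gene tested. Red points are the 106 genes called higher and blue points the 110 called lower; the rising arc of points at the far left holds genes with no count at day 0, whose fitted fold depends on a prior count and is no bound.

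Feedback inhibitors of ERK were among the genes that fell within the first day. Of 17 such genes tested, 4 were called lower (Spry4, Dusp4, Spry1 and Spred3) and 0 higher, against 0.716% of all genes called lower and 0.69% called higher. The list had a median log2 fold change of -0.91, and in 13 of its 17 members all day 1 libraries lay below both controls, against 20.7% of all genes. The mutant-only fit called 7 lower and 1 higher, against 4.7% and 3.41% of all genes.

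Spry4, a Sprouty protein that restrains receptor signalling to Ras, had 236 and 276 CPM at day 0 and 0.277, 10.4 and 3.96 CPM at day 1. Its log2 fold change of -5.71 ± 0.93 (SE, adjusted p = 0.0113) rested on day 1 libraries that lay far below both controls but differed among themselves, with replicate 2 highest. Dusp4, a nuclear phosphatase of ERK, fell from 52.1 and 71.9 CPM to 3.86, 10.0 and 2.56 CPM (log2 fold change -3.50 ± 0.77, adjusted p = 0.0452). Spry1 fell from 31.4 and 36.2 CPM to 10.3, 15.8 and 12.6 CPM (-1.39 ± 0.28, adjusted p = 0.0356). Spred3, which like other Spred proteins restrains Ras signalling, went from 7.06 and 5.88 CPM to 1.89, 1.71 and 1.75 CPM (adjusted p = 0.0489), with the day 1 libraries nearly equal. With RLE size factors it narrowly missed (adjusted p = 0.0504).

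Dusp6, the cytoplasmic phosphatase of ERK, narrowly missed the threshold. It had 70.2 and 87.4 CPM at day 0 and 3.05, 16.2 and 9.01 CPM at day 1 (log2 fold change -3.06 ± 0.71, adjusted p = 0.0542, and 0.0076 in the mutant-only fit). Spry2 had 114 and 115 CPM against 32.3, 54.8 and 70.5 CPM (adjusted p = 0.0782). In both genes every day 1 library lay below both controls. In the MAPK cascade list 0 of 20 members were called in either direction, against 1.41% of all genes. Their median log2 fold change was -0.09. At that share, 0 calls among 20 genes do not set this list apart from all genes.

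Of the ETS factors that ERK induces, Etv4 and Etv1 fell and Etv5 was not called. Etv4 had 237 and 204 CPM at day 0 and 2.82, 18.5 and 5.52 CPM at day 1 (chr11:101769742-101785371, log2 fold change -4.62 ± 0.83, adjusted p = 0.0181). Etv1 fell from 20.3 and 17.1 CPM to 0.739, 3.76 and 2.68 CPM (-2.96 ± 0.63, adjusted p = 0.0402). Both fell to a small share of their day 0 level in every day 1 library. Etv5, the third member of that subfamily, had 421 and 340 CPM at day 0 and 263, 325 and 411 CPM at day 1, with overlapping groups and a log2 fold change of -0.19 ± 0.24. Of the 25 ETS and immediate early genes tested, only Etv4 and Etv1 were called, against 0.716% of all genes called lower. Myc, whose transcription responds to many growth signals, had 119 and 87.7 CPM at day 0 and 17, 37.0 and 46.5 CPM at day 1 (adjusted p = 0.192, and 0.0103 in the mutant-only fit).

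**Figure D2:**
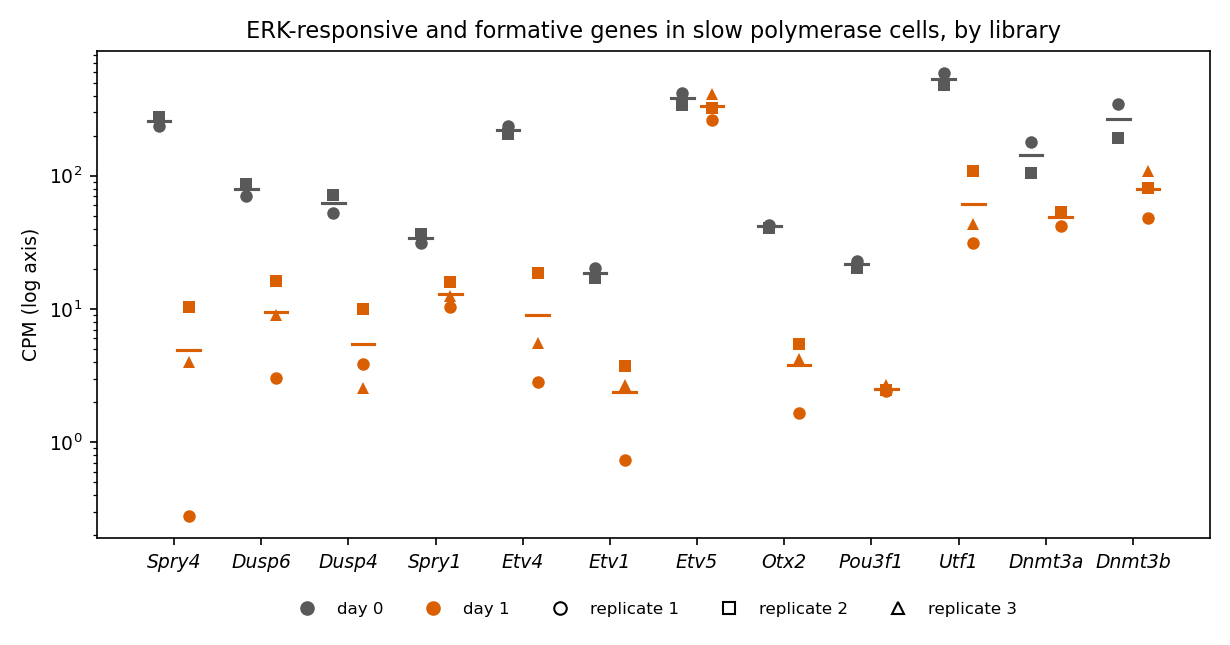
CPM on a log axis of 12 ERK-responsive, formative and pluripotency genes in the 2 day 0 libraries (grey) and the 3 day 1 libraries (orange) of RNAPII-mut cells; symbols mark the replicate and bars the group mean. Etv5 is the only gene shown whose groups overlap, and replicate 2 is the highest day 1 library for Spry4, Dusp6, Dusp4, Spry1, Etv4, Etv1, Otx2, Utf1 and Dnmt3a.

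Genes of the formative state were also among the falls. Of 19 tested, 5 were called lower (Otx2, Pou3f1, Dnmt3a, Etv4 and Slc7a3) and 0 higher, against 0.716% and 0.69% of all genes, with a list median of -0.96. The mutant-only fit called 9 lower, Fgf5 and Dnmt3b among them, and 2 higher, against 4.7% and 3.41% of all genes. Otx2, the homeobox factor that drives exit from the naive state, had 43.0 and 40.8 CPM at day 0 and 1.66, 5.45 and 4.19 CPM at day 1 (chr14:48657677-48673819, log2 fold change -3.47 ± 0.50, adjusted p = 0.00511). Pou3f1, a POU factor of the formative epiblast, had 23.0 and 20.3 CPM and then 2.40, 2.48 and 2.68 CPM (-3.10 ± 0.58, adjusted p = 0.0216). The 3 day 1 libraries agreed closely for Pou3f1 and less so for Otx2. Slc7a3, a transporter of cationic amino acids, fell from 190 and 140 CPM to 59.3, 79.3 and 57.7 CPM. Fgf5, the classical marker of primed cells, was already low, at 2.01 and 1.99 CPM before 2i and 0.277, 0.392 and 0.0777 CPM after, and was not called (adjusted p = 0.373, and 0.0261 in the mutant-only fit).

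The 2 called higher in that fit, and not in the fit of all libraries, were Nes and Cd24a, which many early neural cells also express. Cd24a had 68.0 and 83.3 CPM at day 0 and 211, 176 and 128 CPM at day 1, and Nes had 17.3 and 14.2 CPM and then 34.7, 25.5 and 31.2 CPM.

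Among the general pluripotency factors, Utf1 and Dppa4 fell while the central factors did not pass. Utf1, a chromatin-bound factor of pluripotent cells, had 592 and 479 CPM at day 0 and 31.4, 109 and 43.1 CPM at day 1 (chr7:139943789-139945112, log2 fold change -3.13 ± 0.44, adjusted p = 0.00503). Dppa4 fell from 271 and 218 CPM to 104, 129 and 104 CPM (-1.12 ± 0.16, adjusted p = 0.00477). Pou5f1 had 1894 and 1834 CPM at day 0 and 2430, 1999 and 1616 CPM at day 1, and Sox2 had 503 and 532 CPM and then 344, 480 and 576 CPM. For both, the day 1 libraries fell on either side of the controls. Utf1 and Dppa4 were the 2 calls among 15 genes of the core list, against 0.716% of all genes called lower. The list median was -0.15.

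Of the naive circuit, Nanog and Tfcp2l1 rose. Of 20 naive factors tested, these 2 were called higher and 0 lower, against 0.69% and 0.716% of all genes. The list median was 0.23. Nanog, a central factor of self-renewal, had 281 and 213 CPM at day 0 and 538, 697 and 804 CPM at day 1 (chr6:122707489-122714633, log2 fold change 1.46 ± 0.23, adjusted p = 0.00917). Its mean was 247 ± 47.6 CPM (SD, n = 2) before and 680 ± 134 CPM (SD, n = 3) after 1 day. Tfcp2l1, a target of LIF and Wnt signalling that sustains the naive state, had 261 and 365 CPM and then 669, 626 and 952 CPM (chr1:118627945-118685168, 1.26 ± 0.26, adjusted p = 0.0345). In both genes every day 1 library lay above both controls.

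The other naive factors did not pass on the first day. In 8 of the 20 naive genes, Nanog and Tfcp2l1 included, all day 1 libraries lay above both controls, and in 3 below. Over all genes these shares were 19.5% and 20.7%. Klf2 had 531 and 590 CPM at day 0 and 896, 677 and 682 CPM at day 1 (adjusted p = 0.541). Tbx3 had 60.9 and 112 CPM and then 124, 156 and 215 CPM (adjusted p = 0.526). Prdm14, a repressor of FGF receptor signalling, had 23.7 and 22.5 CPM and then 38.9, 46.8 and 59.4 CPM (adjusted p = 0.113, and 0.00586 in the mutant-only fit). Klf4 had 106 and 123 CPM at day 0 and 101, 138 and 191 CPM at day 1, with overlapping groups. It stood at 234 and 187 CPM at day 2 and at 491 and 475 CPM at day 7. Esrrb, an orphan nuclear receptor, had 667 and 846 CPM and then 826, 840 and 952 CPM, and Zfp42, a zinc finger gene used as a marker of undifferentiated cells, had 880 and 773 CPM and then 636, 893 and 921 CPM. For both, the days overlapped. The mutant-only fit called 6 naive genes higher (Nanog, Tfcp2l1, Prdm14, Dppa3, Pecam1 and Fbxo15) and 1 lower, Manba, a lysosomal enzyme, against 3.41% and 4.7% of all genes.

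Wnt targets gave 1 call in each direction. Of 22 tested, Cdx1 was called higher and Fzd7 lower, against 0.69% and 0.716% of all genes. The list median was 0.09. Cdx1, a homeobox gene under direct TCF control, had 4.72 and 5.91 CPM at day 0 and 151, 68.8 and 104 CPM at day 1 (log2 fold change 4.34 ± 0.57, adjusted p = 0.00362). Fzd7, a Wnt receptor, fell from 91.9 and 98.9 CPM to 24.7, 38.4 and 25.9 CPM (-1.69 ± 0.37, adjusted p = 0.0458). Sp5, which encodes a zinc finger repressor in the Wnt pathway, had 8.55 and 5.00 CPM and then 108, 64.5 and 161 CPM (4.04 ± 1.21, adjusted p = 0.139). T (brachyury), the T-box factor of the primitive streak, had 0.522 and 0.255 CPM and then 10.6, 6.64 and 12.8 CPM (4.69 ± 1.91, adjusted p = 0.293). All 3 day 1 libraries of Sp5 and T lay far above both controls, and the mutant-only fit called both (adjusted p = 0.000263 for each). In WT, T stood at 113 and 91.5 CPM in the 2 libraries with stromal transcripts and at 0.203 and 6.73 CPM in the other day 0 and day 1 library, a spread that enters the fit of all libraries. Axin2, the feedback inhibitor that scaffolds beta-catenin destruction, had 19.0 and 15.4 CPM and then 36.2, 29.6 and 66.6 CPM (adjusted p = 0.192, and 0.015 in the mutant-only fit).

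The mutant-only fit called 7 Wnt targets higher (Axin2, Sp5, T, Cdx1, Cdx2, Dkk1 and Tnfrsf19) and Fzd7 lower, against 3.41% and 4.7% of all genes. Other members were not called: Tcf7 had 66.8 and 67.6 CPM at day 0 and 76.1, 55.8 and 81.2 CPM at day 1, and Lef1 had 39.5 and 20.5 CPM and then 8.82, 4.95 and 17.7 CPM (adjusted p = 0.588). Of 24 components of the Wnt pathway 0 were called, against 1.41% of all genes. Among them, the beta-catenin gene Ctnnb1 had 723 and 721 CPM at day 0 and 487, 700 and 712 CPM at day 1.

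The promoters of Sp5 and T show what the TCF core looks like at these genes. The sequences are the 250 bases before each gene's start, from RefSeq on GRCm38.p6, plus strand, at chr2:70474673-70474922 and chr17:8434173-8434422. Capitals mark the letters TCAAAG on either strand.
Sp5: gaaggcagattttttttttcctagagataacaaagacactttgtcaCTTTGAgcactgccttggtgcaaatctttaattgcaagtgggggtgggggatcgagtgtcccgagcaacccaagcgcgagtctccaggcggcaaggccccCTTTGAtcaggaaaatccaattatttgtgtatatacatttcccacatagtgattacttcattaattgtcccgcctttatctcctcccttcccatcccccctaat
T: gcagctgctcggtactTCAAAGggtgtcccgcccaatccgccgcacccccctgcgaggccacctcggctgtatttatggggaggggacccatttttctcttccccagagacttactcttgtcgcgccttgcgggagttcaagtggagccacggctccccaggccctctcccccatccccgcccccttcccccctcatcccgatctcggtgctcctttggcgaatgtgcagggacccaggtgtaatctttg
The core begins at -204 and -104 from the start of Sp5 and at -234 from that of T. Within windows from 250 bases before to 50 after a start, the same letters occurred in 16.2% of 27025 promoters, in 12.2% of the 11736 matched genes tested, in 10.1% of the 79 matched genes called higher and in 8.64% of the 81 called lower. A match of these letters is a description and marks no bound site.

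**Figure D3:**
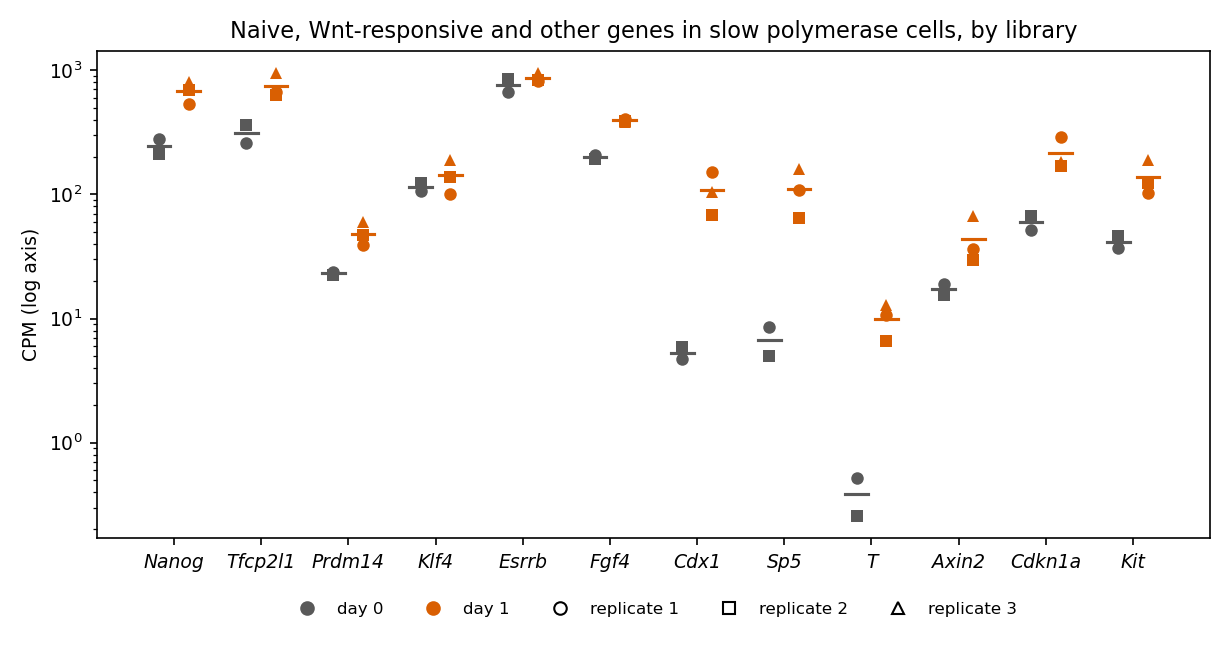
CPM on a log axis of naive factors, Fgf4, Wnt targets, Cdkn1a and Kit in the 2 day 0 libraries (grey) and the 3 day 1 libraries (orange) of RNAPII-mut cells; symbols mark the replicate and bars the group mean. The days are farthest apart for Cdx1, Sp5 and T, whereas Klf4 and Esrrb overlap.

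BMP genes gave 1 call in each direction among 20 tested, against 0.69% of all genes called higher and 0.716% lower. The mutant-only fit called 5 higher and 1 lower, against 3.41% and 4.7% of all genes. Msx2, a homeobox target of BMP signalling, rose from 3.61 and 2.04 CPM to 16.9, 14.8 and 16.9 CPM (log2 fold change 2.52 ± 0.57, adjusted p = 0.0495). Bmp4, the ligand, fell from 86.7 and 101 CPM to 24.5, 37.5 and 26.6 CPM (-1.67 ± 0.38, adjusted p = 0.0495). With RLE size factors both narrowly missed (adjusted p = 0.0504 for each). Id1, a helix-loop-helix inhibitor induced by BMP, had 82.2 and 90.2 CPM at day 0 and 73.2, 101 and 78.4 CPM at day 1, and then 34.6 and 35.9 CPM at day 2. Its relative Id2 had 22.1 and 25.1 CPM and then 40.3, 60.3 and 50.3 CPM (adjusted p = 0.606, and 0.0435 in the mutant-only fit).

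None of the 20 FGF ligands and receptors was called, against 1.41% of all genes. Fgf4, the ligand by which stem cells activate ERK in themselves, had 206 and 194 CPM at day 0 and 407, 391 and 386 CPM at day 1 (log2 fold change 0.98 ± 0.30, adjusted p = 0.144, and 0.00164 in the mutant-only fit). Both groups were tight, with the day 1 libraries about 2-fold above the controls. Fgf15, an endocrine FGF, had 21.0 and 20.0 CPM against 6.24, 10.4 and 4.70 CPM (adjusted p = 0.143). The mutant-only fit called 3 FGF genes higher (Fgf3, Fgf4 and Fgf10) and 3 lower (Fgf1, Fgf5 and Fgf15), against 3.41% and 4.7% of all genes. LIF and STAT3 pathway genes (18) and Nodal and Activin genes (18) gave 0 calls, against 1.41% of all genes, with medians of -0.18 and -0.20.

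In the de novo methylation machinery Dnmt3a fell, and Dnmt3b and Dnmt3l narrowly missed the threshold. Dnmt3a, a de novo DNA methyltransferase, went from 179 and 106 CPM to 41.8, 53.3 and 52.2 CPM (log2 fold change -1.54 ± 0.30, adjusted p = 0.0272). Its paralog Dnmt3b had 344 and 191 CPM and then 47.8, 81.4 and 109 CPM (-1.75 ± 0.40, adjusted p = 0.0524), and their cofactor Dnmt3l had 433 and 274 CPM and then 84.7, 130 and 98.7 CPM (-1.76 ± 0.41, adjusted p = 0.055). In these 3 genes the day 0 replicates also differed, with replicate 1 higher in each. Uhrf1, which directs maintenance methylation to replicating DNA, had 589 and 539 CPM and then 475, 539 and 670 CPM. The stress-inducible Gadd45 genes moved apart: Gadd45a fell from 43.4 and 36.7 CPM to 12.1, 12.4 and 9.38 CPM (adjusted p = 0.00631), and Gadd45b rose from 11.9 and 10.6 CPM to 46.5, 25.2 and 22.1 CPM (adjusted p = 0.0496, and 0.0504 and 0.052 with RLE and upper-quartile scaling). In all, 1 of 19 methylation and demethylation genes was called higher and 2 lower, against 0.69% and 0.716% of all genes. The list median was -0.17. The mutant-only fit called 1 higher and 5 lower, against 3.41% and 4.7% of all genes.

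Of 11 Polycomb repressive complex 2 genes, 1 was called, against 0.716% of all genes called lower. Jarid2, an accessory subunit that helps recruit the complex, fell from 647 and 512 CPM to 142, 245 and 257 CPM (log2 fold change -1.43 ± 0.29, adjusted p = 0.0359). The catalytic subunit Ezh2 had 238 and 225 CPM and then 198, 233 and 235 CPM.

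Calls among cell cycle genes lay in the G1 list. Of 27 G1 regulators, Cdkn1a was called higher and E2f2 lower, against 0.69% and 0.716% of all genes. The mutant-only fit called 1 higher and 5 lower, against 3.41% and 4.7% of all genes. Cdkn1a, the p21 inhibitor of cyclin-dependent kinases, rose from 51.3 and 67.5 CPM to 292, 170 and 181 CPM (log2 fold change 1.85 ± 0.36, adjusted p = 0.0266). It was the 1 call among 22 p53 targets, against 0.69% of all genes called higher, and their median was -0.05. E2f2, an activator of S-phase genes, fell from 49.0 and 54.7 CPM to 15.3, 16.9 and 13.05 CPM (-1.78 ± 0.38, adjusted p = 0.0423). The 44 DNA replication genes and 24 mitotic genes gave 0 calls, against 1.41% of all genes, with medians of 0.05 and -0.01. RNA polymerase II subunits and elongation factors (41) also gave 0 calls, with a median of 0.02. The mutant-only fit added 1 among these, Aff1, a scaffold of the super elongation complex, with 50.3 and 60.0 CPM against 91.4, 96.8 and 166 CPM.

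Several of the largest changes lay outside the signalling lists. Calcoco2, an autophagy receptor, rose from 14.5 and 11.9 CPM to 136, 131 and 135 CPM (chr11:96099326-96111964, log2 fold change 3.34 ± 0.42, adjusted p = 0.00313), with the day 1 libraries nearly equal. Myh13, a myosin heavy chain of extraocular muscle, rose from 12.04 and 16.4 CPM to 162, 81.7 and 147 CPM (adjusted p = 0.0129). S100a13, a calcium-binding protein, rose from 2.43 and 4.69 CPM to 154, 33.5 and 27.6 CPM (adjusted p = 0.0222), and Trpm1, a cation channel known from retina and melanocytes, from 1.61 and 6.64 CPM to 130, 56.3 and 50.7 CPM (adjusted p = 0.0367). In S100a13 and Trpm1, replicate 1 stood far above the other day 1 libraries.

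Neighbouring genes of methyl-group metabolism on chromosome 13, Dmgdh and Bhmt2, were both among the 12 largest rises. Dmgdh, the mitochondrial dimethylglycine dehydrogenase, rose from 0.843 and 0.949 CPM to 15.6, 8.42 and 12.4 CPM (chr13:93674433-93752833, log2 fold change 3.76 ± 0.44, adjusted p = 0.00262). Bhmt2, a methyltransferase that acts on homocysteine, rose from 0.682 and 0.292 CPM to 7.18, 2.70 and 5.13 CPM (chr13:93655720-93674302, adjusted p = 0.0252). At day 7 Dmgdh stood at 101 and 93.9 CPM and Bhmt2 at 39.4 and 37.5 CPM. The other large rises were Cidea, a lipid droplet protein, the acyl-CoA synthetase gene Acsm4, the protease inhibitor gene Serpinb1a, the monocarboxylate carrier gene Slc16a9 and Calb2, which encodes calretinin. Their log2 fold changes ran from 3.05 (Calb2) to 4.25 (Cidea). Kit, a receptor tyrosine kinase and the 1 call among 22 germline genes, rose from 37.0 and 46.1 CPM to 103, 124 and 190 CPM (adjusted p = 0.0446). Of all genes, 0.69% were called higher.

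Among the falls, Enpp3, an ectonucleotidase, dropped from 71.7 and 58.9 CPM to 0.970, 4.37 and 1.88 CPM (chr10:24772406-24842823, log2 fold change -4.76 ± 0.56, adjusted p = 0.00262). Myrf, a membrane-bound transcription factor known from myelinating cells, dropped from 93.3 and 56.4 CPM to 4.99, 6.64 and 6.60 CPM (chr19:10208272-10240748, -3.62 ± 0.33, adjusted p = 0.000993). It was the 1 gene still called without day 0 replicate 1. Arhgef28, a guanine nucleotide exchange factor, fell from 29.6 and 26.3 CPM to 2.36, 2.76 and 1.90 CPM (adjusted p = 0.00313). Robo4, Wt1 and Liph completed the 12 largest falls, with log2 fold changes of -4.08, -4.07 and -3.39. Robo4 is a guidance receptor of endothelium, Wt1 a zinc finger factor of kidney and gonad, and Liph a lipase. Wt1 was the least abundant of them, at 8.43 and 4.38 CPM before 2i.

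Hox cluster genes, examined after the values were seen, had a median log2 fold change of 1.53 over 32 tested (the same with the 3 that had no count at day 0 at their bound), and 4 were called higher (Hoxa7, Hoxc10, Hoxc11 and Hoxc12), against 0.69% of all genes. Their summed level was 12.6 and 14.7 CPM at day 0 and 40.5, 30.2 and 39.4 CPM at day 1.

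Markers of other lineages were called in the mutant-only fit, whereas in the fit of all libraries only Kit, of the germline list, was. The lists for primitive endoderm, primitive streak and mesoderm, trophoblast, stroma, neuroectoderm, 2-cell-like cells and feeder or blood cells had 0 called members in the fit of all libraries. Over all genes tested, 1.41% were called in either direction. The mutant-only fit called 4 of 15 trophoblast genes (Cdx2, Gata3, Gata2 and Krt8) and 4 of 17 streak and mesoderm genes higher, against 3.41% of all genes. It called 3 of 15 neuroectoderm and 3 of 20 primitive endoderm genes higher, and 2 of 16 stromal, 2 of 16 2-cell-like and 2 of 10 feeder or blood genes. The lists share members: Cdx2 counts as a trophoblast, a streak and mesoderm and a Wnt gene, and T as a streak and mesoderm and a Wnt gene. Nes also counts as a formative gene, and Pecam1, 1 of the 2 feeder or blood genes, as a naive gene. Downward, the mutant-only fit called 2 streak and mesoderm genes, 1 neuroectoderm and 1 primitive endoderm gene, against 4.7% of all genes. Of 22 germline genes it called 3 higher and 1 lower. The 16 tested 2-cell-like genes had a median of 0.86, with sums of 246 and 197 CPM at day 0 that overlapped the day 1 range of 219.7 to 318 CPM. Summed levels of streak and mesoderm genes were 25.2 and 23.3 CPM at day 0 and 54.4, 45.6 and 64.5 CPM at day 1, those of trophoblast genes 175 and 215 CPM and then 345, 300 and 280 CPM, and those of neuroectoderm genes 267 and 282 CPM and then 500, 507 and 537 CPM. In these 3 sums every day 1 library lay above both controls. The same held for the germline, stromal and feeder or blood sums. Germline genes summed to 246 and 266 CPM and then 330, 369 and 423 CPM. Stromal genes summed to 181 and 160 CPM and then 198, 217 and 188 CPM. Feeder or blood genes summed to 120 and 126 CPM and then 138, 130 and 162 CPM. The median log2 fold changes of the stromal and feeder or blood lists were negative (-0.24 and -0.27). Primitive endoderm sums overlapped. The placental genes Tpbpa and Prl3d1, the stromal genes Postn and Fap and the blood and vessel genes Csf1r, Hbb-bs and Lyve1 were at 0 in all mutant libraries. Gata6, which defines primitive endoderm, stayed between 0.401 and 0.660 CPM. In bulk RNA, a change in the number of cells of a type and a change in RNA per cell cannot be told apart, and the part of other cell types in these results was not tested.

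The 3 day 1 libraries were not equal in how far they stood from the controls. Of the 106 genes called higher, the highest day 1 level was in replicate 1 for 58, in replicate 3 for 44 and in replicate 2 for 4. The lowest was in replicate 2 for 65. Of the 110 called lower, the highest day 1 level was in replicate 2 for 64. Among the called genes, replicate 2 was thus nearest to the day 0 level more often than the others. Over all 15365 genes tested, the highest day 1 level was in replicate 1 for 6436, in replicate 3 for 5077 and in replicate 2 for 3852. The lowest was in replicate 2 for 3967 of all genes. Egr1 and Fos were also highest in replicate 2. Of 12 immediate early genes, 8 were highest in that library, and 0 were called. Egr1, a zinc finger factor induced within minutes by ERK, had 35.6 and 29.98 CPM at day 0 and 8.55, 162 and 3.92 CPM at day 1, and Fos, a subunit of AP-1, had 3.69 and 3.14 CPM and then 2.91, 27.5 and 1.48 CPM. At day 2 Egr1 again differed between replicates, at 109 and 1.70 CPM. WT libraries differed too. At WT day 1, Egr1 had 182 and 4.51 CPM and Fos 110 and 2.67 CPM in replicates 1 and 2. At WT day 0 these were 77.4 and 30.6 CPM for Egr1 and 48.1 and 3.76 CPM for Fos. The part of the difference between the mutant day 1 libraries in the 216 calls was not tested. Without mutant day 1 replicate 2 there were 113 calls, as given above.

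Ribosomal protein and respiratory chain genes followed another order of the libraries. All 48 cytosolic ribosomal protein genes and all 38 oxidative phosphorylation genes had positive log2 fold changes, with medians of 0.37 and 0.35. In either list 0 were called, against 1.41% of all genes. All day 1 libraries lay above both controls for 15 of the 48 and 23 of the 38, against 19.5% of all genes. Ribosomal protein transcripts summed to 38988 and 40597 CPM at day 0 and to 69003, 51531 and 39126 CPM at day 1. Oxidative phosphorylation transcripts summed to 12335 and 12326 CPM and then to 18053, 15603 and 12766 CPM. For both lists replicate 1 was highest and replicate 3 was close to day 0. In WT cells the list medians were 0.37 and 0.36. WT ribosomal protein transcripts summed to 27232 and 28484 CPM at day 0 and to 28661 and 45937 CPM at day 1, in replicates 1 and 2. Short genes were also higher in mutant day 1 replicate 1. Genes spanning under 10 kb had a median log2 value over day 0 of 0.20 there, 0.03 in replicate 2 and -0.04 in replicate 3. For genes of at least 100 kb these were -0.18, -0.08 and 0.05. Over all day 1 libraries the medians by span were 0.11 (under 10 kb, 3725 genes), 0.02 (10 to 30 kb, 4840), -0.04 (30 to 100 kb, 4266) and -0.05 (2158 genes of at least 100 kb). In WT cells the same medians were 0.10, 0.02, -0.05 and -0.04. From the shortest class to the longest, the share of genes called lower was 0.456%, 0.640%, 0.867% and 1.16%, and the share called higher 0.671%, 0.640%, 0.774% and 0.695%. These shares were not tested against each other.

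**Figure D4:**
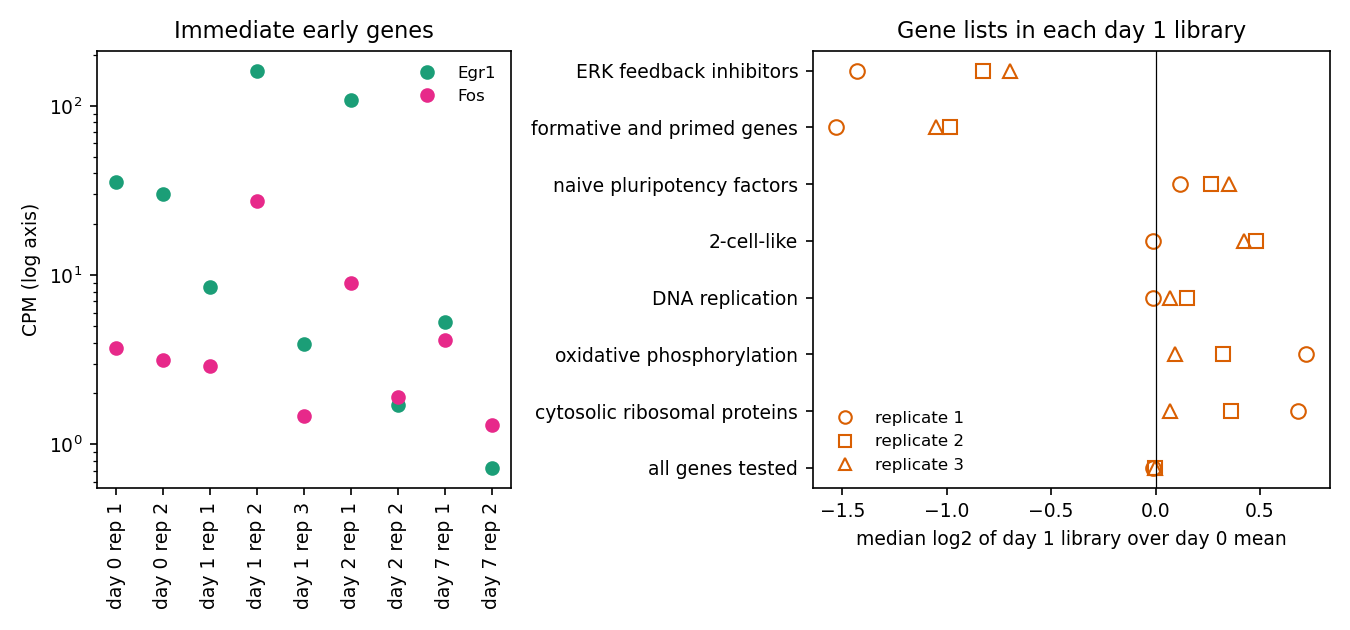
Left, CPM on a log axis of Egr1 (green) and Fos (pink) in each of the 9 RNAPII-mut libraries. Right, median over each gene list of the log2 ratio of a day 1 library to the mean of the day 0 libraries (0.5 CPM added), 1 symbol per replicate; ERK feedback and formative genes lie below 0 in all 3 libraries, while ribosomal protein and oxidative phosphorylation genes range from near 0 in replicate 3 to 0.68 and 0.72 in replicate 1.

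The first day of 2i in WT cells gave the reference for the mutant response; the 2 comparisons share no library. WT cells had 31 calls, 20 higher and 11 lower (0.202% of all genes, 0.13% higher and 0.0716% lower), against 216 in the mutant, and 118 with the replicate number as a block, where same-numbered WT libraries deviated together (r = 0.744). In the fit without the block, 1293 genes (8.42%) had an unadjusted p under 0.05. Leaving out WT day 0 replicate 1 or 2 gave 80 or 2 calls, and leaving out WT day 1 replicate 1 or 2 gave 83 or 0. Of the WT calls, 29 were called in both genotypes, all in the same direction, which is 93.5% of the WT calls and 13.4% of the mutant calls. Id4 and Pnp were called in WT alone in the fit of all libraries, and changed in the same direction in the mutant. The mutant log2 fold change was 1.07 for Id4 (adjusted p = 0.111) and -0.89 for Pnp (adjusted p = 0.0783). The mutant-only fit called Id4. Of the 106 genes called higher in the mutant, 105 had a positive value in WT, and of the 110 called lower, 110 had a negative one. The median WT log2 fold change was 1.64 over the former and -1.30 over the latter, against medians of 2.01 and -1.68 in the mutant, where the genes had been selected. Over all genes tested, 50.9% had a positive WT value, and the WT median was 0.0096.

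The difference between the genotypes' responses, tested as an interaction, gave 0 calls with edgeR and 0 with DESeq2, and 118 and 185 genes with an unadjusted p under 0.05 (0.768% and 1.03% of genes tested). The unequal numbers of calls therefore do not amount to a tested difference. Both shares lay under the share of 0.05 that a calibrated test gives without any difference. The interaction test may thus be conservative here, and its 0 calls do not show equal responses. The reason was not tested, and the intervals below come from the same edgeR fit. For Spry4 the mutant response minus the WT response was 0.43 on the log2 scale (95% interval -2.26 to 3.13), for Nanog 0.38 (-0.32 to 1.09), for Otx2 -0.44 (-1.99 to 1.10) and for Cdx1 0.51 (-1.004 to 2.02). These intervals allow differences of 2-fold in either direction for Spry4, Otx2 and Cdx1, and upward for Nanog. Arhgef28 had the lowest unadjusted p of the difference among the named genes, with WT levels of 22.6 and 15.3 CPM at day 0 and 11.1 and 3.41 CPM at day 1 (difference -2.19, interval -3.58 to -0.79, unadjusted p = 0.00482). For Dmgdh the difference was 1.59 (0.39 to 2.79) and for Id1 1.18 (0.32 to 2.04), where WT Id1 went from 82.0 and 88.2 CPM to 48.4 and 24.7 CPM. None of these passed the adjustment over all genes (adjusted p = 1.00 for each).

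**Figure D5:**
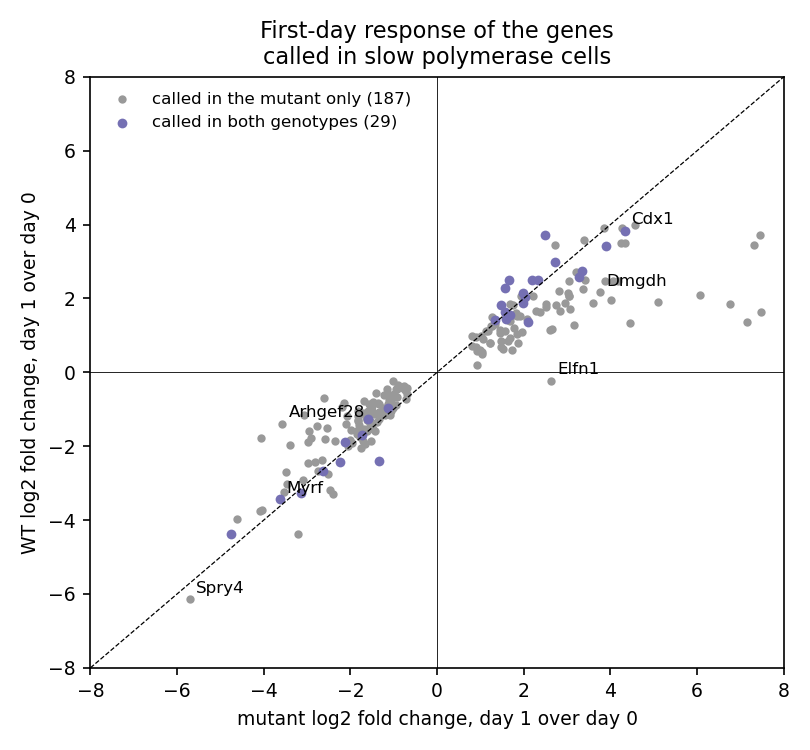
Log2 fold change of day 1 over day 0 in WT cells (vertical axis) against RNAPII-mut cells (horizontal axis) for the 216 genes called in the mutant, with the line of equal change dashed. Purple points are the 29 genes called in both genotypes and grey points the 187 called in the mutant only; 105 of 106 rises and 110 of 110 falls share their sign, and the points at the far right are genes with no count at mutant day 0, whose fitted fold is no bound.

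On later days the called genes mostly stayed on the same side of day 0. From day 1 to day 2, 0 genes were called with edgeR (800 at an unadjusted p under 0.05, 5.21% of all genes) and 58 with DESeq2 (0.431%). The day 2 libraries of all 106 genes called higher lay above both day 0 libraries, and those of all 110 genes called lower lay below them. At day 7 this held for 102 and 107. These comparisons share the day 0 libraries with the first one and are no independent support. Tfcp2l1 stood at 1152 and 1057 CPM at day 2 and at 1552 and 1665 CPM at day 7, above every day 1 library. Utf1 stood at 32.3 and 17.8 CPM at day 2 and at 21.7 and 26.4 CPM at day 7, with 3 of these 4 values below every day 1 library. Spry4 had 2.19 and 0.687 CPM at day 2, within the day 1 range. Msx2, at 14.8 to 16.9 CPM on day 1, had 5.69 and 7.70 CPM at day 7, and Otx2, at 1.66 to 5.45 CPM on day 1, had 11.8 and 6.87 CPM at day 7, still below its day 0 level. Changes from day 1 to day 7 were not tested.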

How the data were processed

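Gene counts from 17 RNA-seq libraries were read from one table, with groups taken from the sample titles. The authors deposited raw read counts per gene symbol. The submitters' processing notes name STAR and the mm10 build; the counter, annotation, strand setting and handling of shared reads are not given in the sources used here, so reads of overlapping or near-identical genes may be split. The members and gene lists were chosen with earlier results of these data known.

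Counts were tested with edgeR 4.0.16 in R 4.3.3 (TMM, filterByExpr, 1 quasi-likelihood fit over 17 libraries in 8 groups, two-sided, Benjamini-Hochberg adjustment within a contrast, threshold 0.05). Of 20621 genes, 2692 had no count and 15365 were tested. The common coefficient of variation was 0.333, with 9 residual and 3.96 prior degrees of freedom. SE is the log2 fold change over the root of the F statistic. Alternatives were DESeq2 1.42.0, other scalings and filters, subsets of libraries, and replicate number as a block. The test was tried on simulated data.

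Named genes were the 12 largest rises and 12 largest falls of at least 5 CPM and up to 4 called members per list and direction. To these came a set of genes chosen whether or not they passed. Of that set, Mycn, Ccnd1, Tet1, Socs3, Lefty1, Nodal and Tcea3 were not called and are not described above. Other list members were chosen for naming after their values were seen. For gene positions GENCODE M21 was used (GRCm38, equal to mm10), which matched 97.5% of symbols, and RefSeq for promoters.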

Additional observations from a re-analysis of the deposited data

How the results depend on the processing

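The 216 calls of the first day in the mutant became 801 with DESeq2, 1077 with only the 5 compared libraries, 1192 with only the mutant libraries, 509 without both WT libraries of other cell types, and 1 to 113 with each mutant library left out in turn. The 31 WT calls became 321 with DESeq2, 0 with only the compared libraries (482 at an unadjusted p under 0.05), 118 with the replicate block, and 0 to 83 with a library left out. The 0 calls from day 1 to day 2 became 58 with DESeq2, 33 with only the mutant libraries, 1 with the replicate block and 1 at most with a library left out. The 0 calls for the genotype difference stayed 0 in every setting run. The other scalings and filters gave 204 to 232 mutant and 33 to 41 WT calls.

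Same-numbered mutant libraries did not deviate together (r = -0.148 and -0.0909 for the pairs of day 0 and day 1), so the numbers were not taken as pairs there, and the replicate block gave 287 mutant calls, 169 of them among the 216. For WT the correlation was 0.744.

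Of 41 called genes among the 73 named, 40, 32, 25, 17 and 24 missed the threshold without day 0 replicates 1 and 2 and day 1 replicates 1, 2 and 3, and 5 did so with the replicate block: Bmp4 (adjusted p = 0.0878), Etv1 (0.062), Wt1 (0.0565), Spred3 (0.0563) and E2f2 (0.0519). Only uncalled genes changed sign. With a library left out, the log2 fold change ran from -2.40 to 1.38 for Egr1 and from -0.64 to 2.16 for Fos, where the lowest values were without day 1 replicate 2, from -0.11 to 0.13 for Zfp42, -0.047 to 0.25 for Pou5f1, -0.33 to 0.025 for Sox2, -0.19 to 0.052 for Id1 and -0.15 to 0.097 for Uhrf1. Id1 was at 0.0015 with the replicate block. The causes were not tested. Depth does not limit the abundant genes, but for the 36 called genes under 5 CPM in both groups and for those with no count at day 0 the size of the change is uncertain.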
